A study of Rattus norvegicus with 9 samples.

Results

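Cultures of Sertoli cells, which line the seminiferous tubule and hold and feed the germ cells, were compared between rats aged 12 days and rats aged 5 days. The comparison used 6 of the 9 one-colour expression arrays of the series, 3 per age, chosen by the age in the sample labels, and the other 3 arrays, of 60-day-old rats, served the estimate of the spread. Cells of all ages were isolated from the testis and received testosterone (1e-07 M) together with oFSH (50 ng/ml), in pulses over 11 h, after 4 days of culture in defined medium. Every culture received both hormones, no culture without them was among the samples, and the labels name neither the strain nor the purity of the cells. Whether the 3 replicates of an age came from different animals is not stated there. P-values therefore measure the spread between these samples alone, which may be technical.

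Between these ages the rat testis moves from a tubule of dividing Sertoli cells and gonocytes towards a tubule in which germ cells enter meiosis and Sertoli cells prepare to stop dividing. FSH acts on Sertoli cells through a receptor that raises cAMP, and cAMP in turn switches on early response genes, many of them transcription factors, within hours. Sertoli cells also send and receive paracrine signals, such as Hedgehog, Wnt and growth factor ligands, to and from the interstitial cells outside the tubule. RNA of a whole culture was measured, so fewer cells of a type and less RNA per cell cannot be told apart.

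A level is the log2 signal less the 75th percentile of its array, and a change is the log2 fold change, 12 against 5 days, with its standard error and the adjusted p of limma. Genes with an adjusted p under 0.05 over the whole table are termed called, and only these rose or fell. Of 20418 genes tested, 4196 were called (20.6%), of which 2077 rose (10.2%) and 2119 fell (10.4%). Only 10791 of those tested had a current symbol, and 1062 of these rose and 1236 fell. Entries without a symbol count as genes here, and some may be pieces of a gene already counted. The median change was 1.66 among the rises and -1.81 among the falls, and 3994 of the called genes differed at least 2-fold. Each slide held 1 array of every age under 1 replicate number. The changes on slides 1, 2 and 3 had the same sign for 4195 of the 4196 called genes, and the arrays of the ages did not overlap for 3778 of them, against 30.1% of all genes tested. The calls were made from these same arrays, and a gene whose slides disagree is seldom called, so this agreement is no separate support. Arrays of the same age always took the same place on the slide, and the effects of place and age cannot be told apart. Between 49.1% and 58.3% of the probes of the 6 arrays were well above background, and saturation reached 29 to 140 probes. Synthetic spike-in controls were 2.16, 0.01 and 1.68 higher at 12 days on slides 1, 2 and 3. With them as the scale the median change of all genes was -1.32 instead of 0.03, 262 genes rose and 7882 fell, and each direction below is thus set against the rest of the genes on the same array.

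Markers of several cell types moved between the ages. Of 22 tested Sertoli markers 15 rose and 0 fell (4 and 3 with the spike-in scale), and their summed signal went from 201 to 208 times the 75th percentile on the 5-day arrays to 506 to 536 at 12 days. Of 20 spermatocyte markers 17 rose (12 with the spike-in scale), with sums of 4.56 to 7.41 at 5 days and 28.9 to 45.2 at 12 days. Of 12 markers of spermatogonia and gonocytes 7 rose and 1 fell (4 and 3 with the spike-in scale), with sums of 15.0 to 18.5 and then 30.7 to 48.6. Of 10 Leydig cell markers 5 fell and 2 rose (19 to 32.0, then 5.99 to 10.1), and 3 of 6 markers of Schwann cells and glia fell (15.4 to 18.8, then 6.18 to 8.5). Of 16 fibroblast markers 11 fell (688 to 1380, then 359 to 536), as did 11 of 15 duct epithelium (64.6 to 116, then 19.4 to 20.2), 11 of 12 macrophage (10.8 to 17.7, then 3.24 to 3.88) and 6 of 11 mesothelium markers (8.24 to 13.2, then 4.37 to 6.6, with 3 falls without the 12-day array of slide 1). The macrophage markers Csf1r, Adgre1, Cd163 and Itgam lay below the filter on dim probes, as did the spermatid markers Prm2, Tnp1 and Acrv1. Peritubular and smooth muscle markers overlapped (844 to 1640 and 812 to 1350), with 1 of 15 called. The part of these cells in the changes described here was not tested.

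**Figure D1:**
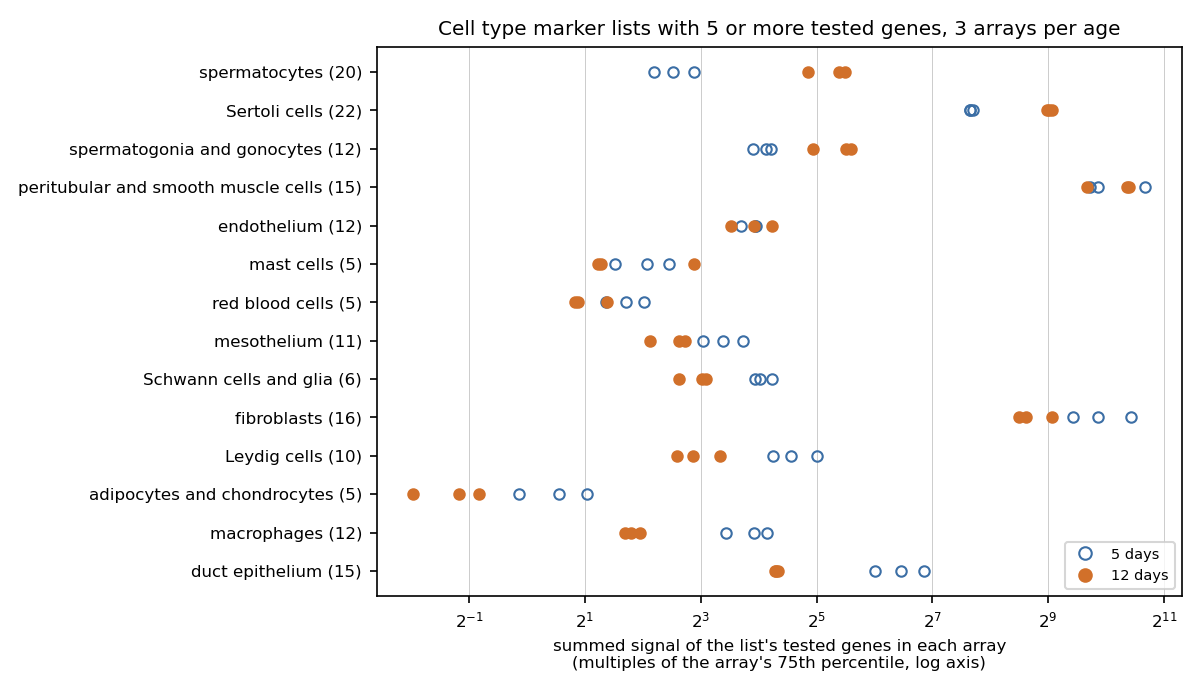
Summed signal of the tested genes of each marker list on each array, in multiples of the 75th percentile of the array on a log axis, with open points for the 3 arrays of 5 days and filled points for the 3 of 12 days. The 12-day sums of Sertoli markers (506 to 536) and spermatocyte markers (28.9 to 45.2) lie above those of 5 days, those of duct epithelium (19.4 to 20.2) and macrophage markers (3.24 to 3.88) lie below, and those of smooth muscle markers overlap.

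Among the largest rises of genes measured above background on all 6 arrays, some were lower again at 60 days and others higher still. Nr4a3, an orphan nuclear receptor that hormones induce within hours, stood at -1.0, -1.01 and -1.08 at 5 days, in the order of replicates 1, 2 and 3, and at 3.24, 3.33 and 3.95 at 12 days. The ages did not overlap, as for most called genes, and Nr4a3 rose by 4.53 ± 0.32 (adjusted p = 3.91e-05). Its 2 other probes rose by 2.61 ± 0.37 and 3.97 ± 0.40. At 60 days it was at -0.47, 0.57 and 0.13, below every 12-day array. Edn1, the precursor of the vasoconstrictor endothelin, went from -1.90, -1.75 and -3.07 to 1.90, 2.66 and 1.91, a rise of 4.40 ± 0.32 (adjusted p = 4.09e-05), and was at 0.11, 0.07 and -0.13 at 60 days. Ppp1r14c, an inhibitor of protein phosphatase 1, rose by 3.91 ± 0.29 from levels of -1.05 to -0.76 to levels of 2.63 to 3.44, and its 60-day arrays (-1.90 to -1.50) lay below both. Ccn3, a secreted matricellular protein, rose by 3.82 ± 0.39 and Pnoc, the precursor of the neuropeptide nociceptin, by 3.58 ± 0.41. Other genes stood higher at 60 days than at 12: Rpl39l1, a paralog of a ribosomal protein gene, stood at -2.66 to -1.96 at 5 days, 1.33 to 2.80 at 12 days and 4.70 to 5.71 at 60 days. Gpat2, an acyltransferase of the germ line, the germ cell gene Tex15 and Erhl1 were of this kind, with rises of 4.40 ± 0.31, 4.65 ± 0.32 and 4.95 ± 0.32.

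**Figure D2:**
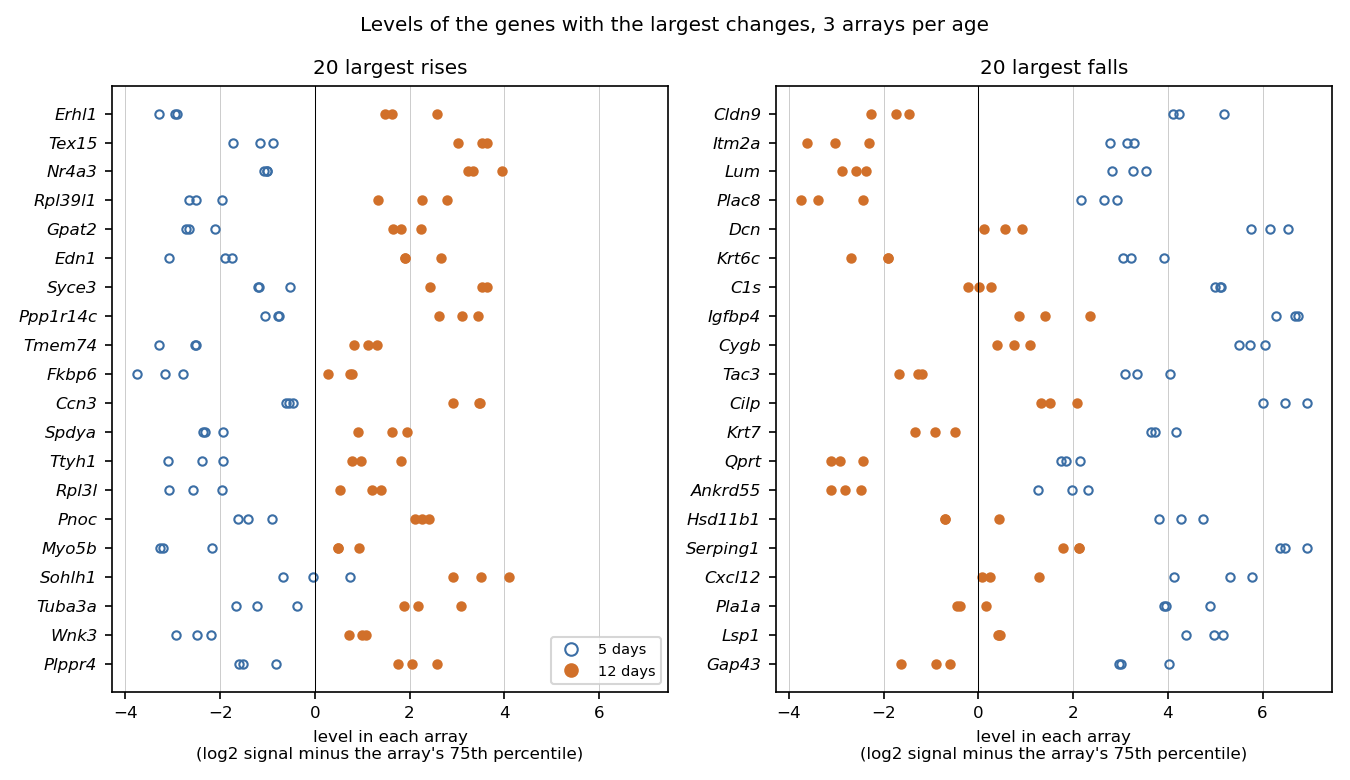
Level on each of the 6 arrays of the 20 genes with the largest rises (left) and the 20 with the largest falls (right) among genes well above background on all 6, as log2 signal less the 75th percentile, with open points for 5 days and filled points for 12 days. No gene of either panel has overlapping ages, against 30.1% of all genes tested without overlap, and this choice of genes favours such a result. The changes run from 3.44 (Plppr4) to 4.95 (Erhl1) and from -4.38 (Gap43) to -6.34 (Cldn9).

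From below background, Tex101, a germ cell surface protein, was at least 47.5-fold higher at 12 days, Dazl, an RNA-binding protein of germ cells, at least 22.3-fold, and Rhoxl, a homeobox gene, at least 22.2-fold. Each was not well above background on any 5-day array and was on all 3 of 12 days. Tnfrsf17, known as a receptor of plasma cells, was at least 16.6-fold higher, from -5.24, -5.45 and -5.90 to -0.23, 0.01 and 0.31 (adjusted p = 1.27e-05). Of the 3 lymphocyte markers tested 0 were called, and Ms4a1 and Cd79b lay below the filter. Lypd10, a member of the Ly6 family, was at least 17.6-fold and the cyclin Ccnb3 at least 13.4-fold higher.

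Both kininogen genes were lower at 12 days. Kininogens are plasma proteins, made mainly by the liver, from which the kinins are cut, and they also inhibit cysteine proteases. Kng1 went from 2.41, 1.90 and 1.94 to levels not well above background on any 12-day array, at least 69.4-fold lower (adjusted p = 5.62e-06). Kng2 went from 2.71, 2.44 and 2.37 to levels not well above background, at least 93.1-fold lower (adjusted p = 1.18e-05). The genes are related, and the Kng1 probe matched 54 of its 60 bases in a Kng2 probe, so their signals may not be separate. The other Kng2 probe, with at most 19 matching bases, went from 2.15, 1.72 and 1.02 to -6.41, -6.70 and -5.46 and was called as well (adjusted p = 2.3e-05). Upk1b, a uroplakin of urothelium and mesothelium, was at least 46.0-fold lower, Casp1, the protease that activates interleukin 1, at least 22.1-fold, and the protease Mmp7 at least 13.2-fold.

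Other large falls were of genes that remained measurable at 12 days. Cldn9, a claudin, went from 5.19, 4.23 and 4.11 to -1.47, -2.27 and -1.75 and fell by 6.34 ± 0.43. Cygb, a globin of fibroblast-like cells, went from 6.04, 5.49 and 5.74 to 0.40, 0.76 and 1.08 and fell by 5.01 ± 0.32 (adjusted p = 2.46e-05). Igfbp4, which binds insulin-like growth factors, fell by 5.04 ± 0.39, Tac3, the precursor of neurokinin B, by 4.87 ± 0.32, Qprt, an enzyme of NAD synthesis, by 4.73 ± 0.30, and Itm2a, a membrane protein of differentiating mesenchyme, by 6.05 ± 0.49. Plac8, a small protein of immune and epithelial cells, fell by 5.75 ± 0.35. The 5-day and 12-day arrays of these genes did not overlap, as for 3778 of the 4196 called genes and 30.1% of all genes tested. Hsd11b1, which regenerates active glucocorticoid, fell by 4.59 ± 0.40 from levels of 3.81 to 4.74, and Lsp1, an actin-binding protein of leukocytes, by 4.41 ± 0.32. Hsd11b1 stands in the Leydig cell list given above, of which 5 of 10 genes fell.

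The early response genes that cAMP and growth signals induce split into opposite groups. Of 41 tested, 10 rose (24.4%) and 10 fell (24.4%), with a median of 0.17 against 0.03 for all genes. Beside Nr4a3 and Edn1, the risers held Pde4b and Pde4d, phosphodiesterases that degrade cAMP. Pde4b rose from -5.35, -3.14 and -2.99 to -0.56, -0.83 and -0.85, by 3.08 ± 0.48 (adjusted p = 0.00179), and 1 of its 5-day arrays was not above background. Pde4d rose by 2.97 ± 0.32, and 2 more of its probes rose by 3.47 ± 0.36 and 3.80 ± 0.41, while the fourth was not called (-0.88 ± 0.48, adjusted p = 0.244). Star, which carries cholesterol into mitochondria for steroid synthesis, rose from 0.99, 0.94 and 1.19 to 2.18, 2.42 and 2.90, by 1.46 ± 0.26 (adjusted p = 0.00382). Star also stands in the Leydig cell list, where 5 of 10 genes fell.

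Among the falls were zinc finger and AP-1 factors. Egr2, a zinc finger factor, went from 3.02, 2.56 and 1.14 to -0.86, -0.13 and -1.63 and fell by 3.11 ± 0.33 (adjusted p = 0.000224). Fos, a subunit of the AP-1 factor, went from 3.21, 2.89 and 4.04 to 1.17, 0.28 and 1.40 and fell by 2.43 ± 0.39 (adjusted p = 0.00211). Egr1, of the same family as Egr2, fell by 2.21 ± 0.26. The ages overlapped for none of these genes, as for most called genes. The bright members Ptgs2 and Jun were not called. Ptgs2, which makes prostaglandins, stood at 7.09 to 8.09 at 5 days and 7.42 to 7.93 at 12 days (0.17 ± 0.29, adjusted p = 0.738), and Jun, another AP-1 subunit, changed by -0.06 ± 0.32. Without slide 3 the list had 6 falls. With the spike-in scale Star was at 0.11 and not called, and its call was also lost without slide 3 (adjusted p = 0.072). Fshr, the receptor of FSH, was dim, with 1 of the 5-day arrays and all 3 of 12 days well above background, and rose by 1.87 ± 0.41 (adjusted p = 0.0109), a call lost with the spike-in scale (0.52) and without slide 1, the 5-day array of slide 2 or the 12-day array of slide 1 or 3 (adjusted p up to 0.0746).

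**Figure D3:**
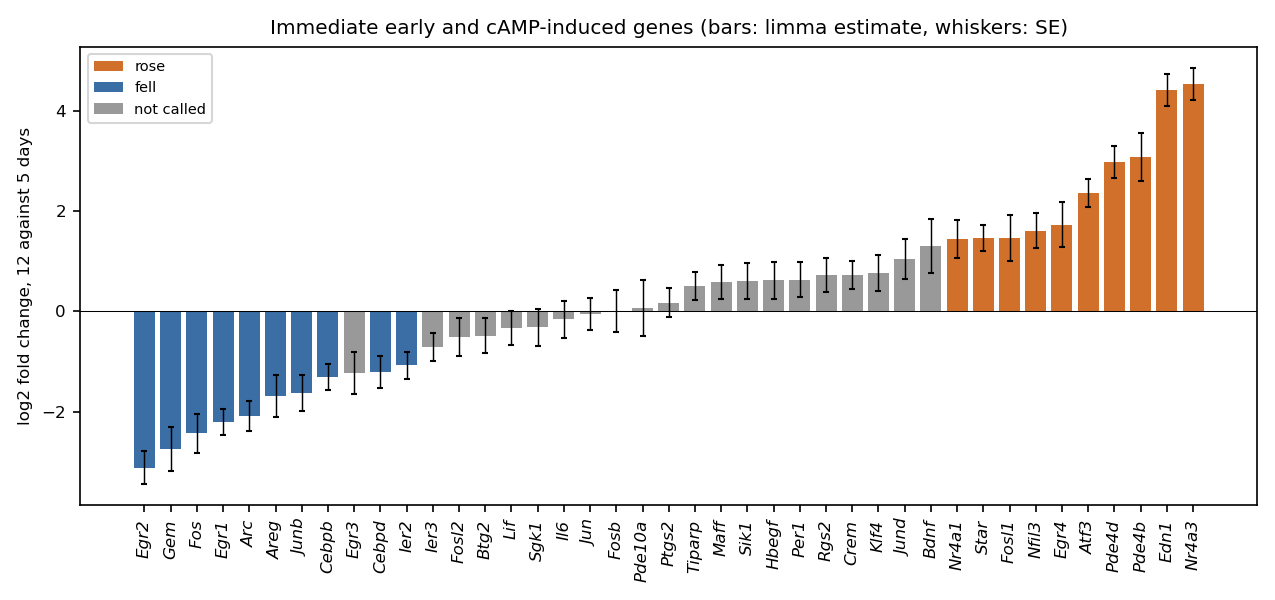
Log2 fold change, 12 against 5 days, of the 41 tested early response and cAMP-induced genes, with the limma estimate as a bar and its standard error as whiskers, coloured by call. The 10 rises run up to 4.53 (Nr4a3) and the 10 falls down to -3.11 (Egr2), with 21 genes not called between them. With the spike-in scale 4 of the genes rose and 16 fell.

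In the Hedgehog pathway the ligand Dhh rose, while the factors Gli1 and Gli2 and the co-receptors Gas1 and Boc fell. Dhh, the ligand that Sertoli cells secrete, rose from 0.42, 0.88 and -0.03 to 2.21, 3.42 and 2.15, by 2.17 ± 0.30 (adjusted p = 0.000892). Gli1, a factor that Hedgehog signals induce, fell from 1.03, 0.68 and 1.04 to -1.04, -2.08 and -1.09, by 2.32 ± 0.31 (adjusted p = 0.000847). Gli2, the main activating factor of the pathway, fell by 2.44 ± 0.35 and the surface co-receptor Gas1 by 2.64 ± 0.41. Dhh, Gli1, Gli2 and Gas1 had no overlap between the ages, as was so for most called genes. Of 11 tested genes 1 rose and 4 fell (median -0.51), the fourth fall being that of the co-receptor Boc (-1.72 ± 0.46), whose call was lost without the replicate block, slide 1 or 3, the 12-day array of slide 1 or 3, or the 5-day array of slide 3 (adjusted p up to 0.212). Sufu, an inhibitor of the Gli factors, changed by -0.20 ± 0.29 and was among the 6 genes not called. With the spike-in scale Dhh was at 0.82 and not called.

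Of 32 tested Wnt pathway genes 13 fell (40.6%) and 1 rose, with a median of -0.80. The secreted antagonists led the falls: Sfrp2 was at least 21.6-fold, Frzb at least 9.56-fold and Dkk4 at least 4.88-fold lower, none of them well above background at 12 days. Sfrp2 had stood at 1.04, 0.35 and -0.17 at 5 days and Frzb at -0.99, -0.46 and -0.89. Rspo3, which strengthens Wnt signals at the receptor, was at least 3.48-fold lower. The riser was Wnt4, a ligand of gonadal development, from 2.34, 2.41 and 1.97 to 4.69, 4.02 and 4.05 (2.01 ± 0.28, adjusted p = 0.000971, and 0.67 and not called with the spike-in scale). Wls, which carries Wnt ligands to the surface, changed by 0.35 ± 0.30 and was not called. The falls numbered 7 without slide 3 and 8 without its 12-day array.

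The Hippo pathway, which restrains growth when cells are crowded, had the highest share of rises among the pathway lists. Of 17 tested genes 7 rose (41.2%) and 1 fell, with a median of 0.68 (-0.66 with the spike-in scale). The kinases Lats1 and Stk4, which transmit the restraint, rose by 2.00 ± 0.25 and 1.65 ± 0.31. Lats1 went from -2.88, -3.05 and -2.35 to -0.95, -1.06 and -0.27. Amotl2, which holds the effector YAP in the cytoplasm, rose by 1.82 ± 0.27, and Ccn1, a target of YAP, by 1.37 ± 0.30, from 3.73, 3.91 and 3.71 to 5.45, 4.81 and 5.2. Stk3, a close relative of Stk4, changed by -0.38 ± 0.32 and was not called. These 4 rises were not called with the spike-in scale (Lats1 0.65, Amotl2 0.48, Stk4 0.30 and Ccn1 0.02). The call of Ccn1 was lost without slide 3 or its 12-day array (adjusted p up to 0.0968), and the list had 4 rises without slide 2 or 3, the array of either age of slide 2, or the 12-day array of slide 3.

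Of 46 tested growth factors and receptors 18 fell (39.1%) and 7 rose. Igf2, the fetal insulin-like growth factor, went from 4.97, 4.54 and 4.61 to 0.86, 1.53 and 1.82, and fell by 3.30 ± 0.32 (adjusted p = 0.000162). Igf1 fell by 2.87 ± 0.35, from levels of 6.22 to 7.34 to levels of 3.87 to 4.07. Vegfd, a lymphatic growth factor, was at least 9.19-fold lower, Pdgfra, a receptor of mesenchymal cells, fell by 3.41 ± 0.51, and Ptn, a heparin-binding factor, by 3.15 ± 0.43. Kitlg, the Sertoli ligand of the germ cell receptor KIT, rose from 2.62, 2.11 and 2.67 to 4.26, 4.23 and 5.36, by 2.15 ± 0.32 (adjusted p = 0.0015, and 0.80 and not called with the spike-in scale). Fgf18, a fibroblast growth factor, rose by 3.09 ± 0.33. Gdnf, the Sertoli factor for stem spermatogonia, varied more between arrays of an age than between ages (0.43, 2.40 and 3.51, then 4.32, 1.53 and 3.42) and was not called (0.97 ± 0.83, adjusted p = 0.464). A second, dim probe of Gdnf went from -6.07, -6.09 and -6.15 to -2.56, -4.07 and -5.05 and was called (adjusted p = 0.0101). The falls numbered 11 without slide 3 and 10 without its 12-day array, and the rises 4 without slide 2 or without any 1 of 5 arrays (all but the 12-day array of slide 1). Pdgfra also stands in the fibroblast list.

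Of 34 tested complement, clotting and kinin genes 18 fell (52.9%), the highest share of falls among the pathway lists, and 2 rose (median -1.63). Beside the kininogens, C1s, the protease that starts the classical complement cascade, went from 5.10, 5.11 and 5.00 to 0.01, -0.22 and 0.26, and fell by 5.05 ± 0.30 (adjusted p = 2.03e-05). Its inhibitor Serping1 fell by 4.57 ± 0.34 and Cfb, of the alternative pathway, was at least 12.2-fold lower. F3, which starts clotting, changed by -0.61 ± 0.25 and was not called (adjusted p = 0.122). The 2 rises were of the prothrombin gene F2, at least 5.8-fold from below background, and of properdin, Cfp (1.46 ± 0.45, adjusted p = 0.0475). The ages overlapped for Cfp, which was not called with the spike-in scale, without the replicate block, or without slide 1 or 3, any 1 of the 5-day arrays or the 12-day array of slide 1 or 3 (adjusted p up to 0.207).

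Of 24 chemokine and chemokine receptor genes 16 fell (66.7%) and 0 rose, with 10 falls without the 12-day array of slide 1. Cxcl12, which attracts germ cells and leukocytes, went from 5.77, 5.32 and 4.13 to 0.25, 1.27 and 0.08, and fell by 4.54 ± 0.61 (adjusted p = 0.000823). Cxcl14 fell by 5.19 ± 0.41 and Cxcl13, which attracts B cells, by 5.48 ± 0.58, from 0.54, 0.62 and 1.25 to levels above background on 1 of 3 arrays. Cx3cl1, a membrane-bound chemokine outside these families, stood at 5.42 to 6.22 and 5.94 to 6.33 and was not called (0.28 ± 0.38). Of 39 cytokine receptors and feedback genes 15 fell, among them the interleukin 1 receptor antagonist Il1rn (-5.06 ± 0.78) and the interleukin 33 receptor Il1rl1 (-2.73 ± 0.36). The 5 rises held Socs2, an inhibitor of growth hormone signals, at least 3.98-fold higher from below background. The receptor of that hormone, Ghr, fell by 2.56 ± 0.47. The 15 falls numbered 9 without slide 2 or 3 and 8 without the 5-day array of slide 2, and the 5 rises numbered 2 or 3 without any 1 slide or array except the 12-day array of slide 2. Of 21 tested MHC class I and II genes, which present antigens, RT1-T24-4 and RT1-N3 fell and 0 rose. This share of falls (9.52%) was near that of all genes tested (10.4%). The macrophage and fibroblast markers given above fell beside the chemokine and cytokine lists, and C1qa and C1qb stand in both the complement and the macrophage list.

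**Figure D4:**
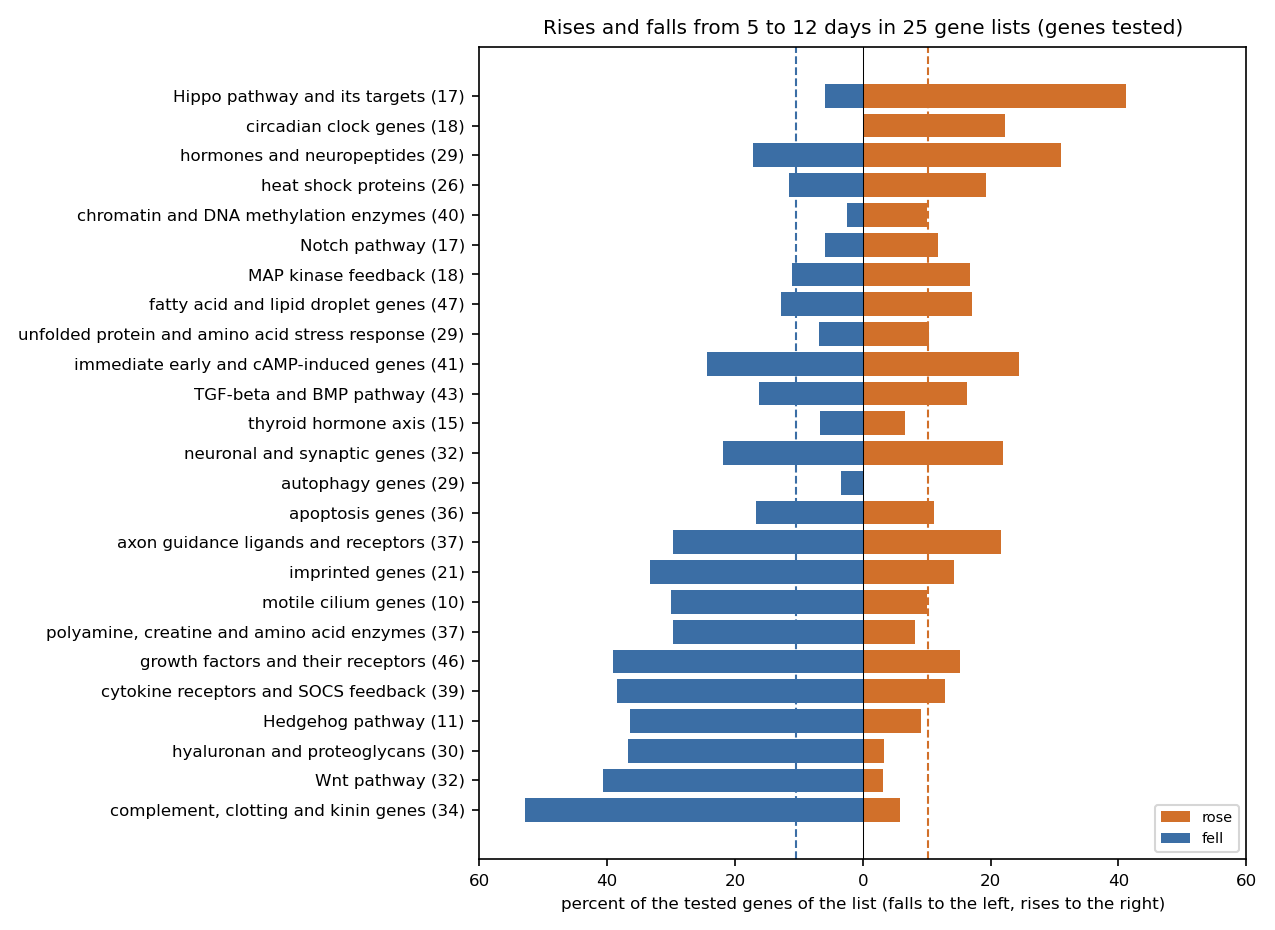
Percent of the tested genes of each of 25 lists that rose (right) or fell (left), with the number tested in brackets and dashed lines at the percent of all genes that rose (10.2) and fell (10.4). The Hippo list has the highest share of rises (41.2) and the complement, clotting and kinin list the highest share of falls (52.9), while the median changes of lists that lean to rises turn below 0 with the spike-in scale.

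Transcripts of matrix genes fell more often than they rose. Of 30 hyaluronan and proteoglycan genes 11 fell (36.7%) and 1 rose, and of 24 collagens 12 fell (50.0%) and 3 rose, or 1 without slide 2 or 3. Of 13 claudins, the seal proteins of tight junctions, 8 fell and 1 rose, Cldn11, the claudin of the Sertoli cell barrier (0.77 and not called with the spike-in scale). Dcn, the collagen-binding decorin, went from 6.53, 6.16 and 5.75 to 0.92, 0.57 and 0.12 and fell by 5.61 ± 0.31 (adjusted p = 1.3e-05). Has2, which makes hyaluronan, fell by 3.90 ± 0.45 from 0.14, 0.12 and -0.94. Col6a1 and Col6a2, chains of the beaded collagen VI, fell by 2.96 ± 0.30 and 3.22 ± 0.37, and Col15a1, a basement membrane collagen, by 3.22 ± 0.49. The chains of the abundant collagen I were not called, with Col1a1 at 7.10, 6.05 and 5.30 and then 6.70, 5.76 and 6.25 (0.09 ± 0.36) and Col1a2 changing by -0.14 ± 0.32. With the mean of their probes Col1a1 was at -1.12 and Col1a2 at -0.51, also not called. Vcan, the large proteoglycan versican, fell by 1.17 ± 0.32, a call lost without the replicate block, without any 1 slide and on dropping any 1 array except for the 12-day array of slide 3 (adjusted p up to 0.171). The fibroblast list, which holds Dcn, and the duct epithelium list, which holds Cldn3, Cldn4 and Cldn7, fell beside these genes.

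Of 44 tested genes with symbols of homeobox or T-box families, 18 fell (40.9%) and 5 rose. Many transcription factors of these families give cells their position in the embryo. The falls include the T-box genes Tbx2 and Tbx3 and, by its symbol alone, the enzyme gene Tbxas1, and the rises include Tbx15. Hoxa5 went from 1.92, 1.93 and 2.61 to -4.73, -4.80 and -2.24, above background on 1 of 3 arrays, and fell by 6.07 ± 0.38 (adjusted p = 2.46e-05). A second probe of Hoxa5 fell by 2.64 ± 0.30. Lhx9, a factor of the early gonad, fell from 2.60, 2.15 and 2.61 to -0.75, 0.08 and 0.51, by 2.51 ± 0.35, and the nuclear receptor Nr2f1 by 3.02 ± 0.43. Osr1, a factor of the urogenital ridge, was not called (0.49 ± 0.33). Tbx18, a factor of the same region, lay below the filter on dim probes. The rises of this group numbered 3 without slide 3.

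Imprinted genes, expressed from the copy of 1 parent and many of them active in fetal growth, fell in 7 of 21 cases and rose in 3. Dio3, which inactivates thyroid hormone, went from 4.06, 4.02 and 4.07 to -0.64, 0.33 and 0.23 and fell by 4.08 ± 0.29 (adjusted p = 3.92e-05). Its second probe fell by 1.57 ± 0.36. At 60 days the brighter probe was at 2.23, 2.45 and 2.58, above every 12-day array. The other genes of the thyroid hormone list were mostly not called: of 15 tested, Dio3 included, 1 rose and 1 fell, and the receptor Thra was not called (0.47 ± 0.47), with 5-day arrays at -0.33 to 2.09. Cdkn1c, an inhibitor of the cell cycle, fell by 2.39 ± 0.39, while the bright Gnas and Ndn were not called (0.07 ± 0.28 and -0.03 ± 0.29). With the mean of its probes Gnas was at 0.97, also not called. The list had 4 falls without any 1 of the 5-day arrays or the 12-day array of slide 1, and 1 rise without slide 3 or its 12-day array.

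Secreted peptides rose in 9 of 29 tested cases (31.0%) and fell in 5, or 3 and 8 with the spike-in scale. Stc1, the hormone stanniocalcin, rose from -4.15, -4.19 and -3.52 to 0.18, 0.18 and 1.08, by 4.44 ± 0.43 (adjusted p = 0.000144), and at 60 days its arrays were at -6.43 to -4.98, each below those of 5 days. It was above background on 1 of 3 arrays at 5 days. Nppc, the C-type natriuretic peptide, rose by 2.78 ± 0.33 (1.44 and not called with the spike-in scale) and was at -5.08 to -3.57 at 60 days, and Grp, gastrin-releasing peptide, was at least 2.56-fold higher from below background. Pthlh, the parathyroid hormone-like peptide, fell from 1.64, 1.55 and 1.22 to -2.61, -2.0 and -2.02, by 3.68 ± 0.38. Genes known from neurons split evenly, 7 up and 7 down of 32: Nrcam, an adhesion protein of axons, was at least 11.2-fold higher, while Gap43, of growing axons, fell by 4.38 ± 0.69 from 4.02, 2.97 and 3.00. Of 37 axon guidance genes 8 rose and 11 fell. Plxnc1, a semaphorin receptor, rose by 2.60 ± 0.31 from levels of 3.55 to 4.40 (1.25 and not called with the spike-in scale), and the semaphorin Sema6d fell by 3.32 ± 0.46. The falls of the peptide list numbered 2 or 3 without any 1 slide or array other than slide 1 and its 5-day array.

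Enzymes and cytoskeletal genes held smaller groups. Gatm, the first enzyme of creatine synthesis, rose from -1.09, -0.71 and -0.48 to 1.63, 2.24 and 2.88, by 3.01 ± 0.33 (adjusted p = 0.000287). Glul, which makes glutamine, fell by 2.53 ± 0.40, and 11 of 37 genes of the amino acid, creatine and polyamine list fell against 3 that rose, with 2 to 8 falls and 1 or 2 rises when a slide or an array was left out. Myosins and troponins had 13 rises among 40 genes and 5 falls, or 2 rises and 13 falls with the spike-in scale. Myo5b, a motor of recycling vesicles, rose by 3.51 ± 0.38 and Myh3, an embryonic muscle myosin, by 2.84 ± 0.45 (1.49 and not called with the spike-in scale). The rises numbered 6 without slide 3 and 8 without its 12-day array, and the falls 2 or 3 without any 1 slide or array other than slide 1. Gja1, the gap junction protein connexin 43, was not called (0.74 ± 0.36), and Cyp19a1, the aromatase that makes estradiol, lay below the filter on dim probes. Kcne1, a subunit of a potassium channel, rose by 2.96 ± 0.30, from -0.42, -0.67 and -0.68 to 2.52, 2.00 and 2.58. In the clock list 4 of 18 genes rose and 0 fell (0 and 4 with the spike-in scale), with the repressor Nr1d1 up by 2.33 ± 0.35 and Rora, which acts on the same sites, by 1.62 ± 0.27 (0.98 and 0.27 and not called with the spike-in scale). Of 11 germ granule genes, which serve the piRNA pathway of germ cells, 5 rose and 0 fell (3 and 1 with the spike-in scale), led by Mael (4.77 ± 0.34), above background on 1 of 3 arrays at 5 days.

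Of 45 proteasome subunits 0 were called in limma, and likewise under every alternative tried other than the spike-in scale, where 3 fell, and 0 had an unadjusted p under 0.05. Their median was 0.23. Of 115 ribosomal protein genes 2 rose, the paralogs Rpl39l1 and Rpl3l (4.51 ± 0.43 and 3.58 ± 0.38), and 0 fell, and the rises numbered 4 without slide 1. Mitochondrial ribosomal proteins had 2 rises of 63, Mrps10 and Mrps7, both from below background at 5 days (at least 2.52-fold and 2.37-fold, and not called with the spike-in scale). Genes with Eif symbols, translation initiation factors and their regulators, had 2 falls of 49, both of regulators. These were the kinase Eif2ak3 (-1.17 ± 0.34) and the inhibitor Eif4ebp1 (-1.08 ± 0.33). Neither was called without the replicate block (adjusted p = 0.132 and 0.2). Their calls were lost in 7 and 9 of the 9 fits without a slide or an array (up to 0.185 and 0.165). Without the 5-day array of slide 1 the Eif genes had 3 rises. With the spike-in scale, 35 of the ribosomal protein genes, 11 of the mitochondrial ones, 12 of the Eif genes and 15 of the autophagy genes fell, with medians of -1.36, -1.13, -1.17 and -1.56. Of 29 autophagy genes 1 was called, Wipi1 (-1.15 ± 0.28, adjusted p = 0.0185), and its call was lost without the replicate block and without slide 2 or 3 or either array of those slides (up to 0.221).

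Some genes next to each other on the chromosomes shared a call. With the 19479 genes that have a position ordered by the position of their probe in the rn4 build, 67 runs of 4 or more neighbours called in the same direction were found, 28 of rises and 39 of falls, and they held 325 of these genes. Some entries of a run have no symbol and may be pieces of 1 transcript. The longest run, of 12 entries on chromosome 6 from 134028313 to 134328129, began with Dlk1, an imprinted inhibitor of differentiation (-3.81 ± 1.09), and its 11 other entries, which have no symbol here, fell by 2.31 to 4.77. The adjusted p of Dlk1 was 0.0344, and its call was lost when an array was dropped, except for the 12-day array of slide 2 (up to 0.192). The chemokine genes Ccl2, Ccl7, Ccl11 and Ccl12, side by side on chromosome 10 (70257919 to 70322401), fell together: Ccl2 by 3.57 ± 0.30 and Ccl7 by 3.38 ± 0.29, and Ccl11 and Ccl12 at least 7.78-fold and 3.67-fold to below background. The proteoglycan genes Ogn, Omd and Aspn on chromosome 17 (20987215 to 21075934) fell by 2.17 ± 0.38, 2.42 ± 0.32 and 2.87 ± 0.44, and Hoxa4, Hoxa5 and Hoxa7 on chromosome 4 (80489587 to 80523510) fell as a run. Among the rises, Cstdc1, Cst12, Cst8 and Cst9l, cystatin genes on chromosome 3 (137540749 to 137604564), formed a run: Cstdc1 was at least 5.58-fold higher, and Cst12, Cst8 and Cst9l rose by 3.37 ± 0.33, 2.23 ± 0.27 and 2.24 ± 0.33, the last 2 at 0.88 and 0.89 and not called with the spike-in scale. These genes are related copies, and how far the probes tell them apart was not tested. Dmrt1 and Dmrt3, factors of sex determination, lay in a run of 4 with Dock8 and Kank1 on chromosome 1 (228634098 to 229057960). Dmrt1 rose by 3.39 ± 0.35, while Kank1, at 0.92 ± 0.27, lost its call without any 1 slide or array and was at -0.43 with the spike-in scale.

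Different probes of a gene mostly did not go against each other. Of 2565 genes with a symbol and 2 or more probes past the filter, 692 had at least 1 called probe, 278 had all probes called the same way, and 5 had probes called in opposite directions. Copg2, a coat protein gene beside the imprinted Mest, had 1 probe that rose (1.28 ± 0.28) and 1 that fell to below background (adjusted p = 0.00541). Pycard, an adaptor of the inflammasome that activates caspase 1, fell at 1 probe (-1.35 ± 0.36) and rose at another (2.58 ± 0.55), which the file places on the other strand. Rasl12 rose at 1 probe (1.40 ± 0.29) and fell at another (-1.12 ± 0.30), and the others were Dip2a and Kiaa0408L. The calls of Copg2, Rasl12, Pycard and Kiaa0408L were lost in 3, 4, 7 and 7 of the 9 fits without a slide or an array, and those of Pycard and Kiaa0408L also without the replicate block. With the spike-in scale Copg2 was at -0.07 and Rasl12 at 0.05, not called. With the mean of the probes Copg2 was at -0.41, Pycard at 0.61 and Kiaa0408L at 0.62.

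The promoter windows of RefSeq (GRCr8, 250 bases before to 50 after the start, 8721 of the tested genes) were searched on both strands for 12 short motifs, of which the 4 spelled out below do not contain one another, with the genes that rose (866) and fell (921) set beside all tested. The full cAMP response element, TGACGTCA, stood in 3.70% of the promoters of genes that rose, 1.09% of those that fell and 3.13% of all. The Ets element, CCGGAAGT, stood in 2.77%, 1.19% and 8.11%, and the E-box, CACGTG, in 11.9%, 6.84% and 9.83%. The AP-1 element, TGANTCA, stood in 6.0%, 6.84% and 4.94% and the interferon-stimulated element in 3.23%, 4.13% and 2.99%. Among genes that changed at least 4-fold, the cAMP element stood in 1.85% of the rises and 1.11% of the falls, the Ets element in 2.16% and 0.556%, the E-box in 8.95% and 5.83%, the AP-1 element in 6.79% and 9.72%, and the interferon-stimulated element in 4.01% and 6.67%. The median number of CpG pairs per window was 19.5 in the rises, 15.0 in the falls and 21.0 in all. A match is a description of letters and not a bound site.

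The 250 bases before the start are shown for germ cell genes with E-boxes, for 2 defence genes with the interferon-stimulated element and for both kininogens, which were not well above background at 12 days. Capitals mark the E-boxes in Sycp3 (chr7:24761226-24761475, plus strand, at least 14.0-fold higher) and Ddx4 (chr2:46015952-46016201, minus strand, at least 7.45-fold higher), and the interferon-stimulated element in Casp1 (chr8:10872580-10872829, plus strand) and Cxcl10 (chr14:15988816-15989065, plus strand, -3.56 ± 0.62), where the AP-1 element is also in capitals. In the windows of Kng1 (chr11:91340149-91340398, minus strand) and Kng2 (chr11:91418220-91418469, plus strand) capitals mark an identical stretch of 87 bases. Counted from the start of the gene, it begins at -250 in Kng1 and at -95 in Kng2.
Sycp3: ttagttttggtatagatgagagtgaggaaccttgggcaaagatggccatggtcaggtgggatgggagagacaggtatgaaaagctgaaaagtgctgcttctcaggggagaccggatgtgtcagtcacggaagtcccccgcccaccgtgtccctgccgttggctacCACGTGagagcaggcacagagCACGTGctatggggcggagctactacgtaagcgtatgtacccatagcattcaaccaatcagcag
Ddx4: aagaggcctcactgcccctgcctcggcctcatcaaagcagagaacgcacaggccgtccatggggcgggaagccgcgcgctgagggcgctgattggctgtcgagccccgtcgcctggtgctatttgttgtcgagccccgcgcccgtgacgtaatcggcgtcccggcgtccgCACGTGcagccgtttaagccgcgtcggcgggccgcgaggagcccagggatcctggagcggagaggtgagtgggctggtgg
Casp1: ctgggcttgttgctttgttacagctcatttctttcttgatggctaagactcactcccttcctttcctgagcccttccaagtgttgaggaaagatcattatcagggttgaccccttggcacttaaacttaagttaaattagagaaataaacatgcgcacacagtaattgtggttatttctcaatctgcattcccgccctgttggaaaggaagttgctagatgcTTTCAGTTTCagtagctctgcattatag
Cxcl10: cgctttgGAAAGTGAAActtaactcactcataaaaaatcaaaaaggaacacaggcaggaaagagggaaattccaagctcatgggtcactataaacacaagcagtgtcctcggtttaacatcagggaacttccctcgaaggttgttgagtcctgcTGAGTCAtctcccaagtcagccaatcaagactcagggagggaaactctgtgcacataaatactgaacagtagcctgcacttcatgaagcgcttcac
Kng1: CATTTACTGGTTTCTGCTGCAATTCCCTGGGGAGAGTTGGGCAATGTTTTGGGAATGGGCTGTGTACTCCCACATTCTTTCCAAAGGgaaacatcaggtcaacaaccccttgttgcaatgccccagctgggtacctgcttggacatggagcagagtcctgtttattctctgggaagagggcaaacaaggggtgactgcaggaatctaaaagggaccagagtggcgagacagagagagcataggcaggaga
Kng2: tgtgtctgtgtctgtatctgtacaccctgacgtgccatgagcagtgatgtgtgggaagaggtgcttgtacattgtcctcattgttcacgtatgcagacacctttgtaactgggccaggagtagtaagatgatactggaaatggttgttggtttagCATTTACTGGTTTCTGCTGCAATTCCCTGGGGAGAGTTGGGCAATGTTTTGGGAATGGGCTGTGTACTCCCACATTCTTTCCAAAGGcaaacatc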

How the data were processed

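Cy3-labelled aRNA of each culture was hybridised to a one-colour Agilent rat array. Per the file headers, Agilent Feature Extraction gave a background-subtracted, detrended signal intensity per spot, which was deposited. The series also holds deposited log2 values, 99.6% to 99.7% of which equalled the scans less 1 constant per array within 0.01. The members and gene lists were chosen with earlier results of these data known, and 1 of the lists is not reported here.

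The log2 intensity minus the 75th percentile of the array was taken, without control spots and 254 flagged probes. Probes well above background on at least 2 arrays of 1 of the ages were kept (24016 of 41012), with the probe of highest mean for each gene. limma 3.58.1 (R 4.3.3) was fitted to all 9 arrays with age and replicate number, which is also the slide, as a block. P-values were adjusted by Benjamini-Hochberg. Arrays of a number went together: deviations correlated at 0.163 to 0.643 within a number at every pair of ages and at most at 0.104 otherwise. Slide 1 was read on another scanner and extraction version (G2505B, 9.5.3.1) than slides 2 and 3 (G2505C, 10.5.1.1). Pairing of the samples and effects of the slide and its scan cannot be told apart. With 3 arrays per age, their number limits the precision. The fit was also run on simulated data with independent noise, far fewer changed genes and no shift in scale between arrays. That run therefore cannot test the choice of scale.

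Where all arrays of the lower age failed to reach well above background, "at least N-fold" gives the higher mean over the lowest signal that does. Current symbols came from RefSeq for 20506 probes. Named genes are the 20 largest changes and 8 largest bounds each way, up to 5 called and 2 bright uncalled members per list, genes of neighbouring runs or opposite probes, and 26 set genes. Egr1, Wnt4, Fgf18, F2, Cfp, Cxcl10 and Cldn11 were added after their values were seen, as were those named for a marker list or a printed promoter.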

Additional observations from a re-analysis of the deposited data

How the results depend on the processing

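Without the replicate block 1397 genes rose and 1505 fell, all of them also called with the pairing by slide. With the spike-in scale 262 genes rose and 7882 fell, so that 3.22% of the calls were rises instead of 49.5%. Normexp background correction, which could be run on slides 1 and 3 only, gave 335 rises and 509 falls. The main processing on these slides gave 1375 and 1463, so the missing slide was not the only difference. With normexp the rises numbered 8 in the Sertoli, 3 in the spermatocyte and 0 in the Hippo list. The falls numbered 2 in the Wnt list, 8 in the complement list and 6 among the chemokines. Of 147 named genes compared, 59 lost their call with normexp. With probes well above background on all 6 arrays 1365 rose and 1379 fell, among fewer genes tested. Leaving out a slide or an array gave 1016 to 1869 rises and 1267 to 1772 falls, with the fewest without slide 3, and on fewer arrays. No call was turned into a call of the opposite direction by any of these alternatives or by the others tried. Among the called genes named, Copg2 was at -0.07 and Kank1 at -0.43 with the spike-in scale, against the opposite sign in the main analysis. With the mean of their probes Copg2 was at -0.41, Pycard at 0.61 and Kiaa0408L at 0.62, again of the opposite sign. The cause was not tested. Signals near the background limit the falls, which for 434 genes ended below it, and the rises, which for 488 genes began below it.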
